A study of Rattus norvegicus with 4 samples.

Results

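S100b, S100a1, S100a4, S100a6, S100a10 and S100a11 are 6 of the 32623 genes, and of the 17 S100 genes, counted in spatial transcriptomes of the rat trigeminal nerve. They were chosen by symbol, as the S100 genes known from glia and nerve, and each matched 1 row of the gene table. The tissue was trigeminal nerve root with its semilunar (trigeminal) ganglion and the near parts of the branches, from adult male Sprague-Dawley rats of wild type genotype, cut at 10 μm and placed on 4 Visium capture areas. In the trigeminal neuralgia (TN) group the trigeminal root had been compressed on 1 side, and the diseased side of 3 animals filled the areas TN1, TN2 and TN3. The healthy control (HC) group was a single area with tissue of 2 animals. The deposited design calls it the healthy side of 2 of the 3 animals, whereas the methods describe sham-operated controls, so the 2 groups may share animals. Condition and capture area cannot be told apart, and HC has no spread of its own.

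S100 proteins are small calcium-binding proteins with EF-hand motifs that mostly act as dimers, changing shape on calcium binding and then gripping a partner protein. S100B is the classical marker of astrocytes, Schwann cells and satellite glia. S100A4 and S100A6 are found in Schwann cells and fibroblasts, and S100A10 binds annexin A2 and carries ion channels such as the pain-related sodium channel Nav1.8 to the membrane of sensory neurons.

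A Visium spot is a small disc of tissue that can hold several cells. Its unique molecular identifiers (UMIs) count captured transcripts, and levels are given here as UMIs of a gene per 1000000 UMIs of the same spots (CPM). The areas held 1256 to 2013 spots and 23546025 to 41335930 UMIs, with a median of 9487 to 30808 UMIs per spot. The 6 genes together made up between 0.66% (TN1) and 0.83% (TN3) of an area's UMIs, with 0.77% in HC. Of 3573 barcode sequences, 2337 occurred in 2 or more areas, since each area is printed with the same set, and spots were told apart by their area suffix. Spots were grouped into 10 clusters with all S100 genes left out, and clusters were named as regions from marker genes. The ganglion region joined cluster 4 (led by the injury-induced neuronal genes Gal, Csrp3 and Vip) and cluster 8 (led by Nefl and Tac1) and had 203, 366, 166 and 675 spots in TN1, TN2, TN3 and HC. Its 11 sensory neuron markers summed to 7010 to 8117 CPM in the 4 areas. Over all spots the sensory neuron marker Pou4f1 and the satellite glia marker Kcnj10 were under 1 CPM in every area. Clusters 1 and 6 had no single leading marker list and stay unnamed: cluster 1 tied between connective tissue and peripheral myelin, and cluster 6 between peripheral myelin and sensory neurons. Cluster 9, named blood and bone, scored 2.68 for that list and 1.33 for central myelin, the next list, so it may also hold central myelin. No cluster took this name without mitochondrial, ribosomal protein and hemoglobin genes, or with log-normalised counts before clustering.

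The rat genes lie in 2 places. S100b is on chromosome 20, and the other 5 are on chromosome 2 in the S100 cluster, where S100a5 is the only protein-coding gene between S100a4 and S100a6, and S100a11 and S100a10 are direct neighbours. Upstream sequences are shown for S100b, S100a4 and S100a11, the members whose levels lay apart most from HC below. They come from RefSeq (GRCr8), stop where the listed gene begins and are written 5′ to 3′, with motif matches in capitals. The sequences are as follows.
S100b, chr20:12381160-12381331, minus strand: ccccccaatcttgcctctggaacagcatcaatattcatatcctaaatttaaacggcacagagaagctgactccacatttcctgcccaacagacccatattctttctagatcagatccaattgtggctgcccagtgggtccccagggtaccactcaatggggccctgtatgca
S100a4, chr2:178388279-178388528, plus strand: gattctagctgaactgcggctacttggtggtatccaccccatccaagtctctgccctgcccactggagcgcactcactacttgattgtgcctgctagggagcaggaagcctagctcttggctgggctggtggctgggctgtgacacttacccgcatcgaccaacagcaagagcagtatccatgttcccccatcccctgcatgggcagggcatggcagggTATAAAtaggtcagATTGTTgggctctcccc
S100a11, chr2:181874882-181875131, plus strand: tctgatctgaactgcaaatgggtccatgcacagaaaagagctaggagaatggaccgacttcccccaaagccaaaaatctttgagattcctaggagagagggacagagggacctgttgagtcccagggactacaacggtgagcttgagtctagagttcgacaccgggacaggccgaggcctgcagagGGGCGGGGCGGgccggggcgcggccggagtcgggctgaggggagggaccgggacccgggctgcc
Both strands of the 250 bases before each start were searched for 4 motifs. The motif of the injury-induced factor AP-1 was read as TGANTCA. The motif of SOX factors, among them the glial regulator SOX10, was read as AACAAT. The TATA box was read as TATAAA. The GC box, bound by SP1, was read as GGGCGG. In S100a4 the capitals mark a TATA box that begins 31 bases before the start and a SOX match on the reverse strand that begins 17 bases before it. In S100a11 they mark 2 GC boxes, at 64 and 59 bases before the start, which overlap by 1 base. The S100a6 window, not shown because it lies inside the listed gene, had 1 GC box at 80 bases, and the S100b window had no match to any of these motifs. AP-1 letters occurred in none of the 4 windows. Of 33469 rat promoters, 6.34% held the AP-1 letters, 10.3% the SOX letters, 12.9% the TATA box and 30.5% the GC box.

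The glial members S100b and S100a1 were highest in the region named central (oligodendrocyte) myelin. The 7 astrocyte markers summed to 4564 to 8632 CPM there in the 4 areas, so the region mixed both glial types. S100b stood at 6771, 6247 and 7217 CPM in TN1, TN2 and TN3 and at 9815 in HC, a mean of 7512 ± 1586 (SD, n = 4 areas). The astrocyte region followed with 5051 ± 8.77 (n = 2 areas), and its range did not overlap that of the central myelin region. Peripheral (Schwann cell) myelin, at 3369 ± 3.67 (n = 2), and the blood and bone region, at 3349 ± 584 (n = 4), were next and overlapped. The ganglion region had 1788, 1432, 1788 and 2249 in TN1, TN2, TN3 and HC, and connective tissue was lowest at 911 ± 4.27 (n = 2). Within each of the 4 areas, S100b was lower in the ganglion than in central myelin, by a mean log2 ratio of -2.05 ± 0.10.

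S100a1, a calcium sensor that regulates ryanodine receptors in muscle, had a narrower pattern. Central myelin had 420.5, 399, 348 and 423 CPM in TN1, TN2, TN3 and HC, and the astrocyte region 276.5 ± 35.7 (n = 2). Blood and bone, at 151 ± 26.6 (n = 4), and central neurons, at 104 ± 24.3 (n = 2), overlapped each other. The regions of peripheral nerve, ganglion and connective tissue had means of 26.4 to 51.0. Peripheral myelin, the highest of these, lay under central neurons without overlap, and below it each region overlapped the next. In peripheral myelin S100a1 was lower than in central myelin by a log2 ratio of -2.89 ± 0.03 (2 of 2 areas), against -1.05 ± 0.07 for S100b. Regions were made from the same spots, so these levels are a description with no test.

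**Figure D1:**
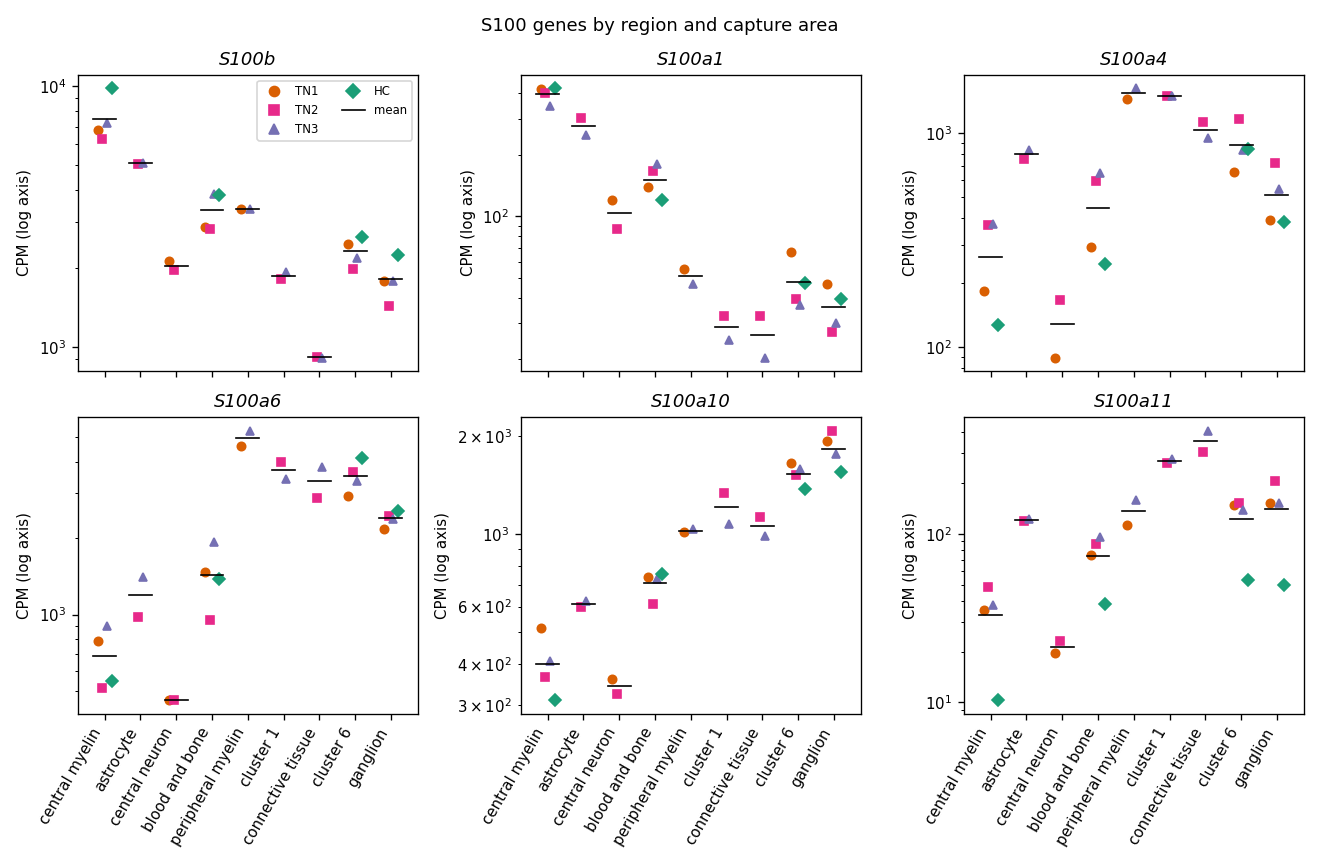
CPM (log axis) of each S100 gene in 9 regions, with 1 point per capture area that held 20 or more spots of the region and a line at the mean. S100b and S100a1 peak in central myelin, S100a4 and S100a6 in peripheral myelin, S100a10 in the ganglion and S100a11 in connective tissue, and HC lies under the TN areas for S100a11 in each of the 4 regions it shares with them.

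S100a4 and S100a6, which bind cytoskeletal proteins and annexins, were highest in peripheral myelin. S100a6 stood at 4942 ± 474 CPM there (n = 2), then at 3708 ± 409 in cluster 1 (n = 2), 3515 ± 501 in cluster 6 (n = 4) and 3351 ± 662 in connective tissue (n = 2), 3 regions that overlapped. The ganglion followed at 2390 ± 164 (n = 4) without overlap on either side. Central myelin had 688 ± 187 (n = 4) and central neurons had 461 ± 1.09 (n = 2), the lowest level.

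S100a4 was at 1527 ± 122 CPM in peripheral myelin (n = 2) and at 1490 ± 2.98 in cluster 1 (n = 2), which overlapped, and at 1031 ± 125 in connective tissue (n = 2). Central neurons were again lowest at 128 ± 54.0 (n = 2). In TN1 and TN3, the areas with enough spots of both, S100a4 was higher in peripheral than in central myelin by log2 ratios of 2.96 and 2.10, and S100a6 by 2.55 in each.

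S100a10 was highest in the ganglion region, at 1931, 2069, 1759 and 1551 CPM in TN1, TN2, TN3 and HC (1827 ± 224, n = 4). Cluster 6, at 1532 ± 120 (n = 4), overlapped the ganglion. The other nerve regions had means of 1025 to 1209, and central myelin, at 400 ± 86.4 (n = 4), and central neurons, at 342 ± 24.8 (n = 2), were lowest. Within the 4 areas S100a10 was higher in the ganglion than in central myelin by a mean log2 ratio of 2.21 ± 0.26. Anxa2, its annexin partner, had the same order of regions from the ganglion (1015 ± 99.4, n = 4) to central neurons (174 ± 37.8, n = 2). The 2 transcripts kept a similar proportion, with 1.36 to 2.20 S100a10 UMIs per Anxa2 UMI over all regions and areas.

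S100a11, which binds annexin A1, was highest in connective tissue at 306 and 407 CPM in TN2 and TN3, followed by cluster 1 at 264 and 277. Neither region had 20 spots in TN1 or HC. Central neurons were lowest at 21.4 ± 2.59 (n = 2). The ganglion was over central myelin by a log2 ratio of 2.08 ± 0.07 within the 4 areas, and the 4 ratios lay between 1.99 and 2.16. The annotation lists 7 further loci with S100a11 names (pseudogenes and related genes) and 1 for S100a10. None of them has a row among the counted genes, and how reads shared with them were counted is not given in the sources used here, so these 2 genes' counts are uncertain.

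Across spots the members fell into a central pair and a nerve group. Pearson's r of log2(UMIs per 10000 + 1), averaged over the 4 areas, was 0.552 for S100b with S100a1, 0.699 for S100a4 with S100a6 and 0.616 for S100a6 with S100a10. S100b had negative mean r with all 4 nerve members, from -0.213 with S100a4 to -0.432 with S100a10. Spots of an area share its library and neighbours share tissue, so r is a description. S100b had a mean r of 0.610 with the astrocyte list and 0.588 with the central myelin list, and S100a1 had 0.606 and 0.576. S100a6 followed the peripheral myelin list most closely (mean r 0.816), as did S100a4 (0.730). S100a10 followed the sensory neuron list (0.648) and, next, the nerve injury list (0.518). S100a11 was less close to any list, with 0.378 for peripheral myelin, 0.371 for connective tissue and -0.0003 for macrophages.

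**Figure D2:**
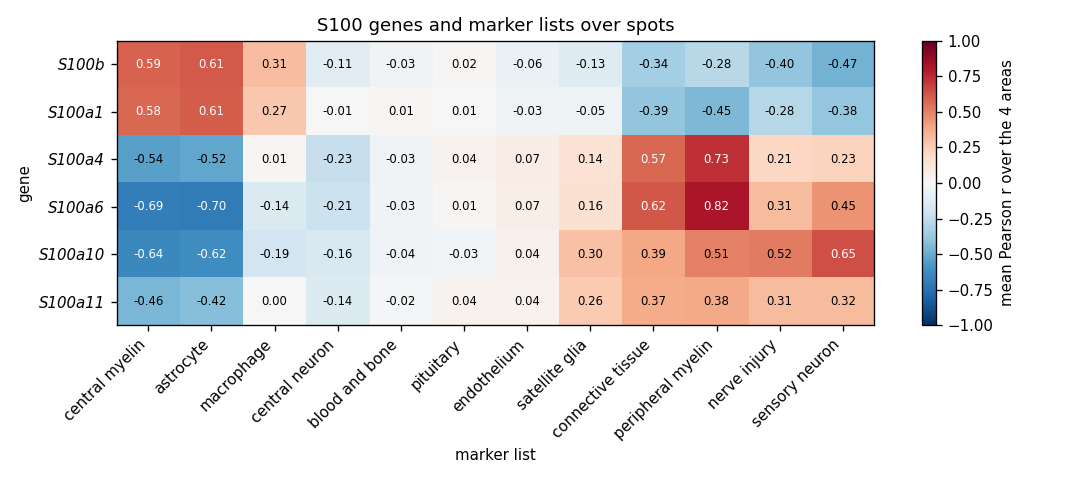
Pearson's r across spots of each S100 gene (rows) with the summed UMIs of 12 marker lists (columns), averaged over the 4 capture areas and coloured from -1 to 1. S100b and S100a1 are positive with the central myelin and astrocyte lists, and the other 4 genes are negative with both.

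Genes most like each member, among 7835 genes with a UMI in at least 10% of the spots of every area, included genes of the same tissues; those given are from the 5 nearest. For S100b they were Pea15 (mean r 0.719), Mbp, Cst3 and Tf, of which Mbp encodes myelin basic protein. For S100a1 they were Tf (0.611), Klk6, Gfap and Aplp1, with the astrocyte filament gene Gfap among them. Pmp22 (0.707), S100a6, Vim and Prx were close to S100a4, and Pmp22 (0.810), Lgals1, Egfl8 and Prx to S100a6; Pmp22 and Prx are structural genes of Schwann cell myelin. S100a10 was closest to Sncg (0.668), Lgals1, Anxa2, Prph and Tubb5, of which Prph encodes the sensory neuron filament peripherin. S100a11 had the weakest neighbours, Lgals1 (0.475), S100a6, Vim, Crip1 and Ngfr, and its r with Lgals1 ran from 0.307 in HC to 0.699 in TN2. HC and TN2 also differed in depth, with medians of 14616 and 30808 UMIs per spot.

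S100a11 was the member that lay furthest from HC in the compressed nerves. In the ganglion region it had 153, 207 and 153 CPM in TN1, TN2 and TN3 (171 ± 31.2 SD, n = 3 areas) and 49.6 in HC, from 1444, 3243, 1056 and 1303 UMIs. In central myelin the levels were 35.3, 48.3 and 37.8 in the TN areas and 10.3 in HC, from only 59, 54, 43 and 53 UMIs. Cluster 6 had 148, 151 and 139 in the TN areas and 53.1 in HC, and blood and bone had 74.5, 87.2 and 96.3 against 38.4. Over all spots S100a11 was again above HC in every TN area, as were 28.7% of genes. Every TN area was above HC in all 4 regions that had 20 or more spots in each area, which held for 5.26% of 9144 genes. No other member did so, and no member was below HC throughout, against 3.63% of genes.

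None of the 6 members passed the test between TN and HC. edgeR's quasi-likelihood test on summed UMIs with Benjamini-Hochberg adjustment called 0 of 14902 genes over all spots (0%), 0 of 12841 in the ganglion region (0%) and 0 of 9168 in central myelin (0%). At an unadjusted p under 0.05 there were 1271, 1179 and 295 genes, and DESeq2 called 158, 118 and 4. For S100a11 the edgeR log2 fold of TN over HC was 1.86 (SE 0.49) over all spots, 1.71 (SE 0.26) in the ganglion and 1.90 (SE 0.34) in central myelin, with adjusted p of 0.556, 0.283 and 0.9996. Its unadjusted p in the ganglion ranked 20 of 12841. With DESeq2 its adjusted p was 0.0259 over all spots, where 1.2% of genes passed, 3.4e-06 in the ganglion, where 0.919% passed, and 0.440 in central myelin. Without a filter on low counts the edgeR adjusted p in the ganglion was 0.0468, and 0.156% of genes passed. Without TN1 the edgeR adjusted p of S100a11 was 0.0107, 5.1e-05 and 6.8e-08 in the 3 comparisons, in which 14.8%, 8.49% and 5.03% of genes passed. Over all spots S100a4 (adjusted p 0.0323) and S100a1 (0.0490) were also among the 14.8% that passed without TN1. The S100a11 level over all spots was 104, 212 and 195 CPM in TN1, TN2 and TN3 and 44.2 in HC. Connective tissue and cluster 1, the regions where it was highest, had no spots in HC. The 3 TN areas are separate animals that also differed in the tissue caught and in depth, so the spread holds all of these. With all 4 areas 2 residual degrees of freedom were left. Without TN1 only TN2 and TN3 gave the spread, and without TN2 or without TN3 no member passed in these comparisons.

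**Figure D3:**
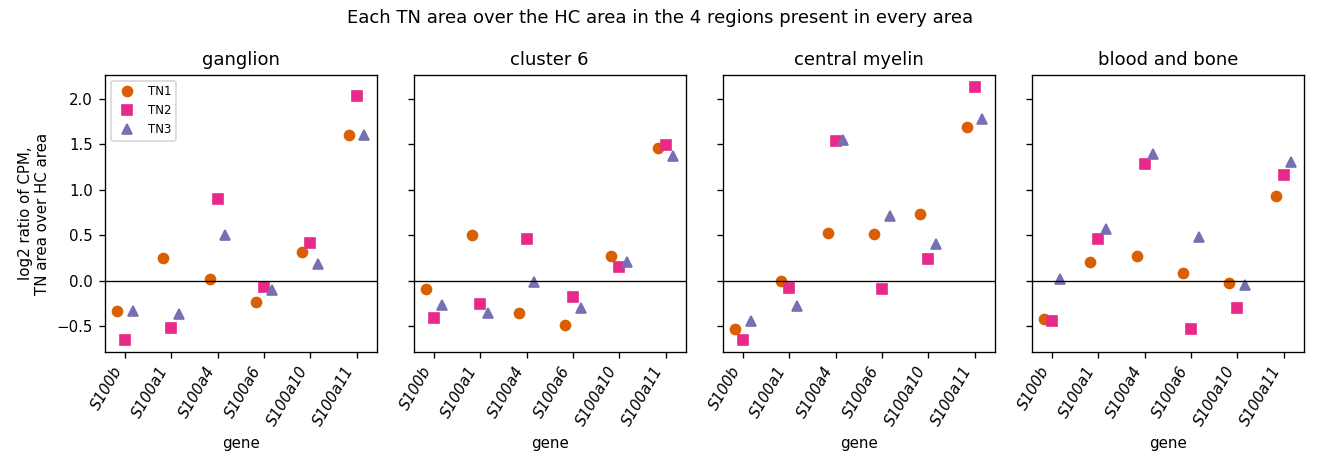
log2 ratio of CPM of each TN area over the HC area for the 6 S100 genes, in the 4 regions with 20 or more spots in every area; the line at 0 is the HC level. All 12 S100a11 points lie above the line, and S100b lies under it in the ganglion, cluster 6 and central myelin.

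Other cell types' genes also differed in the same contrast, in both directions. In the ganglion region the 6 connective tissue markers summed to 1085, 3340 and 2526 CPM in TN1, TN2 and TN3 and to 1084 in HC, with 5 of 6 higher in every TN area. The 7 macrophage markers summed to 243, 582 and 391 against 146, with 6 of 7 higher, and the 8 nerve injury markers to 1397, 2630 and 1463 against 494, with 8 of 8 higher. Lower in every TN area were 5 of 7 astrocyte, 5 of 7 blood and bone, 4 of 8 central myelin and 5 of 11 sensory neuron markers. In these lists 1, 0, 1 and 1 were higher in every TN area, and the 4 satellite glia markers had 0 in either direction. Of all genes tested in the ganglion, 27.4% were higher in every TN area and 29.5% lower. In TN1 the connective tissue sum was close to that of HC, while the macrophage and nerve injury sums were above it. S100a11 was at 153 CPM in TN1 and 49.6 in HC. Of the ganglion spots, 338 of 675 in HC and 91 of 203 in TN1 lay at or below the HC median of connective tissue and macrophage UMIs (11.6 per 10000), and in these S100a11 was 128 CPM in TN1 and 49.1 in HC. No ganglion spot of TN2 or TN3 lay that low. This subset was chosen after seeing the data and holds TN1 alone of the TN areas. The part of these cell types in the S100a11 level was not tested. A change in the number of cells of a type and a change in RNA per cell cannot be told apart in such sums.

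S100b was lower in the TN areas in 3 of the 4 shared regions. In central myelin the TN levels were 6771, 6247 and 7217 CPM against 9815 in HC, and in the ganglion 1788, 1432 and 1788 against 2249, with no overlap in either. In cluster 6 they were 2489, 1991 and 2191 against 2646, whereas in blood and bone TN3 (3872) was above HC (3836). Its log2 fold of TN over HC was -0.63 (SE 0.35) over all spots, -0.49 (SE 0.21) in the ganglion and -0.60 (SE 0.22) in central myelin, with edgeR adjusted p of 0.570, 0.546 and 0.9996. All 3 TN areas were below HC for 29.5% of genes in the ganglion and 21.2% in central myelin, so the lack of overlap was common. The share of all genes below HC in 3 or more of the 4 regions was not counted. The 8 central myelin markers summed to 2861, 3127 and 2903 in TN and 2685 in HC in central myelin, and the 7 astrocyte markers to 4564, 8632 and 6533 against 6948. In the ganglion the 7 astrocyte markers summed to 252, 336 and 365 against 527, with 5 lower and 1 higher in every TN area. The 8 central myelin markers there summed to 174, 91.3 and 74.6 against 207, with 4 lower and 1 higher. The 4 satellite glia markers there summed to 10147, 13280 and 10727 against 10215. The part of these cell types in the S100b level was not tested.

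S100a4 was higher in every TN area than in HC in 3 of the 4 shared regions. In central myelin it had 184, 372 and 375 CPM in TN1, TN2 and TN3 and 128 in HC, a log2 fold of 1.22 (SE 0.43), with an edgeR adjusted p of 0.9996, and 3.9e-07 without TN1, where 5.03% of genes passed; all 3 TN areas were above HC for 20.3% of genes. Without TN1 only TN2 and TN3, at 372 and 375, gave the spread. In blood and bone S100a4 had 295, 599 and 646 against 245, and the share of all genes that did so there was not counted. In the ganglion TN1 (392) was close to HC (386) while TN2 (720) and TN3 (545) were higher, a log2 fold of 0.45 (SE 0.33). There all 3 TN areas were above HC for 27.4% of genes. Cluster 6 had 659, 1158 and 832 against 843, so the groups overlapped there. The share of all genes above HC in 3 or more of the 4 regions was not counted. Connective tissue markers in central myelin summed to 465, 1829 and 1661 in TN and 540 in HC; their part in the S100a4 result was not tested.

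Over all spots and in the ganglion the 95% intervals of every member but S100a11 included 0, and in central myelin those of S100a1, S100a6 and S100a10 did. S100a10 in the ganglion was above HC in every TN area (a log2 fold of 0.24, SE 0.19, 95% interval -0.22 to 0.70), as were 27.4% of genes. S100a6 in the ganglion had 2170, 2444 and 2384 CPM in TN and 2563 in HC (-0.20, SE 0.18, interval -0.64 to 0.24). S100a1 in central myelin had 420.5, 399 and 348 against 423 (-0.19, SE 0.22, interval -0.69 to 0.32). The edgeR adjusted p of these was 0.683, 0.725 and 0.9996.

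**Figure D4:**
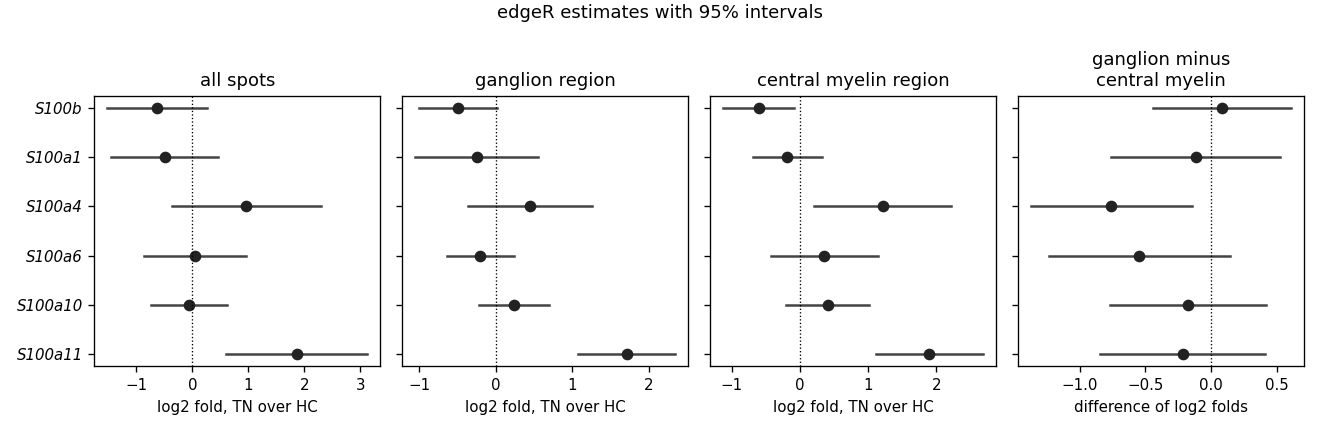
edgeR log2 folds of TN over HC (points) with 95% intervals (lines) for each S100 gene: whole areas, ganglion region, central myelin region and then the difference between the last 2. Only S100a11 has an interval above 0 in all of the first 3 panels, and none of the values passed the adjusted test.

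Whether the contrast differed between the ganglion and central myelin was tested in a joint fit of both regions that keeps each area's own level. This test called 3 of 12783 genes (0.0235%) and none of the 6 members, of which S100a4 had the smallest p (-0.76, SE 0.28, unadjusted p = 0.0187, edgeR adjusted p = 0.870). For S100a11 the difference was -0.21 (SE 0.29, 95% interval -0.84 to 0.41), and for S100b 0.08 (SE 0.24, interval -0.44 to 0.60).

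Within the ganglion of the TN areas, cluster 4, the spots led by injury genes, had 52, 325 and 69 spots in TN1, TN2 and TN3 and none in HC, and cluster 8 had 151, 41 and 97, with 675 in HC. S100a11 was higher in cluster 4 in 3 of 3 areas, at 229, 220 and 235 CPM against 125, 136 and 106 in cluster 8 (mean log2 ratio 0.90 ± 0.22). S100a4 was higher by 0.62 ± 0.12 and S100a10 by 0.23 ± 0.03, each in 3 of 3 areas. The clusters were made from expression of these spots, and the share of all genes higher in cluster 4 in every area was not counted. S100b (-0.08 ± 0.16) and S100a6 (0.03 ± 0.18) did not separate the 2 clusters. Atf3, a transcription factor of injured neurons, was higher in cluster 4 by 1.52 ± 0.27. With 3 pairs an exact test cannot reach 0.05, so none is given.

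**Figure D5:**
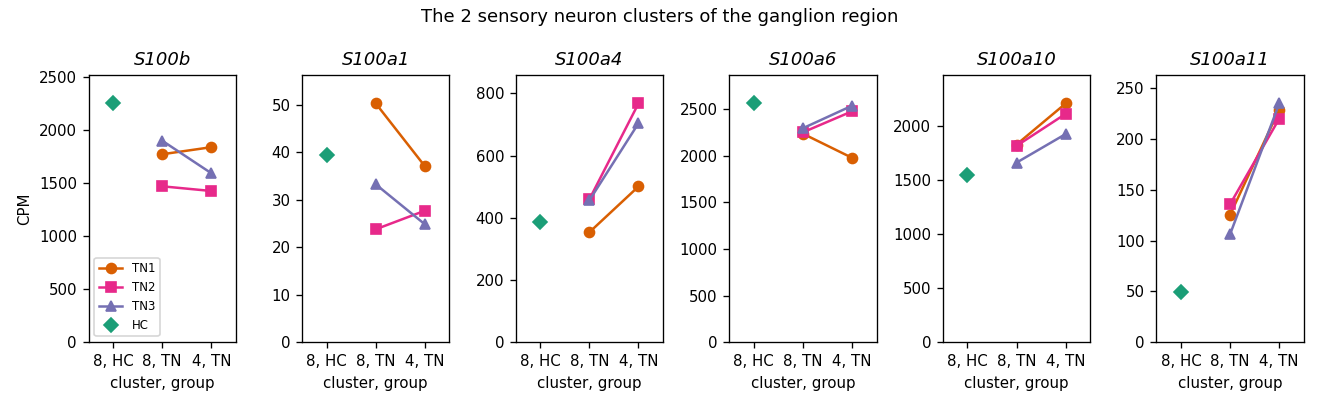
CPM of each S100 gene in the 2 sensory neuron clusters of the ganglion, with cluster 8 in HC, cluster 8 in the TN areas and cluster 4 in the TN areas; lines join the clusters of 1 TN area. S100a11 stands at 49.6 in HC, at 106 to 136 in cluster 8 of the TN areas and at 220 to 235 in cluster 4.

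Cluster 8 was the part of the ganglion that all 4 areas had in common, and its comparison was added after seeing the data. There S100a11 was 125, 136 and 106 in the TN areas and 49.6 in HC, a log2 fold of 1.25 (SE 0.19, edgeR adjusted p = 0.180, 5 of 11386 genes called). S100a4, at 353, 459 and 456 against 386, and S100a6, at 2238, 2253 and 2297 against 2563, gave log2 folds of 0.08 (SE 0.18) and -0.23 (SE 0.12). S100b gave -0.44 (SE 0.17), close to its value for the whole ganglion.

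Peripheral myelin had 409 and 379 spots in TN1 and TN3, but only 11 in TN2 and 16 in HC, so TN and HC were not compared there. With 8 clusters, 12 clusters or spots classed by their highest marker list, enough spots were found, and S100a11 had log2 folds of 1.73, 1.93 and 1.72 (edgeR adjusted p 0.171, 0.515 and 0.0619). In the same order S100a4 had 0.31 (SE 0.27), 0.45 (SE 0.29) and 0.58 (SE 0.22). S100b had -0.07 (SE 0.32), -0.27 (SE 0.46) and -0.04 (SE 0.34). Over all spots, in the ganglion and in central myelin S100b had -0.63, -0.49 and -0.60, and whether peripheral myelin differed from these was not tested. S100a1 (0.23, 0.10 and -0.16), S100a10 (0.02, 0.22 and -0.14) and S100a6 (-0.13, -0.19 and 0.02) differed in sign between the 3 settings. These fits called 0, 0 and 381 genes, with 1487, 1051 and 2586 at an unadjusted p under 0.05. With 12 clusters HC had 20 spots against 412, 299 and 660 in TN1, TN2 and TN3. A cluster with no HC spots held 295 of those of TN2, so the tissue compared was not the same.

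A list of 12 other S100 genes, which did not include S100vp, matched 10 rows of the gene table, of which 7 were tested over all spots and in the ganglion, and 6 in central myelin. None passed in either direction. S100a8 and S100a9, the calprotectin subunits of neutrophils, were at 34.2 and 36.8 CPM in the HC ganglion against 3.17 to 3.61 and 2.64 to 6.21 in the TN areas (log2 folds -3.37 and -3.09, edgeR adjusted p 0.0940 and 0.231). The 7 blood and bone markers summed to 404, 117 and 276 CPM in the ganglion of the TN areas and to 418 in HC; their part was not tested. In blood and bone S100a8 reached 491 in HC and 13.6 to 135 in TN. S100g had 24.3, 7.78 and 51.3 in the TN ganglion and 114 in HC, and S100a13 had 261, 208 and 227 against 376. S100a16 gave a log2 fold of -0.65 and S100a3 of 0.08 in the ganglion. Over all spots 1 of the 7 was higher and 6 lower in TN, with a median log2 fold of -0.999, against 0.06 for all genes tested.

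Of 22 known partners, receptors and targets of S100 proteins, 19 were tested over all spots and in the ganglion and 13 in central myelin, and none passed. In the ganglion 10 had positive and 9 negative log2 folds, with a median of 0.10 against 0.03 for all genes tested. Those with an unadjusted p under 0.05 there, named after their values were seen, were the plasminogen activator gene Plat at 1.27 (SE 0.40) and the ion channel genes Asic1 at -1.07 (SE 0.32) and Kcnk3 at -0.75 (SE 0.23), each with an edgeR adjusted p of 0.538. Anxa1, the annexin partner of S100a11, was also looked up afterwards and had the highest log2 fold of the list, 1.33 (SE 0.56, edgeR adjusted p 0.546). Anxa2 was 0.14 (SE 0.19) and Ahnak, the giant scaffold bound by the S100a10 and Anxa2 complex, 0.35 (SE 0.27). Cacybp, the S100a6 binding protein, was -0.34 (SE 0.24). Scn10a, the Nav1.8 channel that S100a10 binds, was -0.64 (SE 0.32), with 114, 91.8 and 104 CPM in cluster 4 against 219, 197 and 146 in cluster 8 of TN1, TN2 and TN3. Ager, a receptor for secreted S100 proteins, was 0.40 (SE 0.38), at 5.18, 7.84 and 6.36 CPM in TN1, TN2 and TN3 and 4.68 in HC.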

How the data were processed

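Spatial gene expression was measured with Visium on 3 TN areas and 1 HC area. The authors deposited 1 matrix of raw UMI counts per gene and spot, made with Space Ranger 1.2.0 per the file header, with STAR named in the labels. The genome build and gene annotation are not stated in these sources. The areas' order in the design text gave the barcode suffixes their samples. As in the study, spots were normalised with sctransform (0.4.2, Seurat 5.3.0) and clustered by K-means (10 clusters, 30 principal components, 3000 variable genes less the S100 genes); this grouping is a rebuild, and clusters may differ from the study's. No doublet caller was run, and all 6773 spots were kept. Clusters were named where the best marker list led the next by 0.25. UMIs were summed per region and area and tested with edgeR 4.0.16 (quasi-likelihood, TMM, filterByExpr, Benjamini-Hochberg over all genes, threshold 0.05); edgeR estimated the spread from the 3 TN areas. DESeq2 1.42.0 was an alternative. Every region tested needed 20 spots in each area. Each fit was tested on simulated data. Log2 ratios between regions used a pseudocount of 1. Depth was 23546025 to 41335930 UMIs per area; intervals do not cover the animals within HC. The named genes were the 6 members, other S100 genes at 10 or more CPM in an area, 5 partners and the 5 nearest genes of each member, some of which are not reported here. Members and lists were chosen with earlier results of these data known. RefSeq names served for 6 of 6 members.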

Additional observations from a re-analysis of the deposited data

Results flagged for a closer look

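In 2 genes every TN area lay above HC in 1 region and below it in another, as did 12.6% of 9144 genes; these differences between regions were not tested. S100a1 was above HC in blood and bone in 3 of 3 TN areas (139, 166 and 180 CPM against 121) and below it in central myelin in 3 of 3, and the mean log2 ratios of TN over HC differed by 0.53. S100a10 was below HC in blood and bone in 3 of 3 areas (740, 610 and 731 against 754) and above it in the 3 other shared regions, so that blood and bone lay lower by -0.58 relative to central myelin, -0.33 relative to cluster 6 and -0.43 relative to the ganglion. In both genes the value nearest to HC differed from it by little: 420.5 against 423 for S100a1 in central myelin, and 740 against 754 for S100a10 in blood and bone.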

How the results depend on the processing

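No paired analysis was possible because HC is a single area with tissue of 2 animals, whose spots are not labelled by animal. The number of genes called by edgeR depended on which areas were used. When 1 TN area was left out in turn, it ran from 0 to 2171 over all spots, from 0 to 1097 in the ganglion, from 0 to 420 in central myelin and from 3 to 78 for the difference between the 2 regions, the highest of these each time without TN1; without TN2 the ganglion had 15 and central myelin 28, and without TN3 the difference had 63. DESeq2 called 158, 118 and 4 genes in the first 3 comparisons. Without a filter on low counts 29, 1 and 86 genes were called in the ganglion, in central myelin and for the difference. Leaving out mitochondrial, ribosomal protein and hemoglobin genes gave 72 for the difference, log-normalised counts before clustering gave 50, and cluster 8 alone gave 5 in the ganglion. Causes were not tested. The members' log2 folds kept their direction in these 4 comparisons under every alternative run, except 8 values: S100a6 over all spots (-0.099 to 0.20 with 1 TN area left out, negative without TN3); and for the difference between regions S100b (-0.028 to 0.14 with 1 area left out, negative without TN1), S100a1 (-0.37 to 0.073 with 1 area left out, positive without TN2, and 0.0086 without the filter, 0.056 with 12 clusters and 0.10 with marker classes) and S100a11 (0.023 without those gene classes and 0.38 with log-normalised counts). The ganglion log2 fold of S100a11 lay between 1.25 and 1.82 over 14 alternatives, 3 of which passed, with adjusted p from 3.4e-06 to 0.70. The ratio of ganglion to central myelin kept its sign for every member over 10 alternatives, as did peripheral to central myelin, and all 30 nearest genes were the same with a 5% minimum. The comparison of ganglion spots low in connective tissue and macrophage genes, like that of cluster 8 alone chosen after seeing the data, could not be fitted, since TN2 and TN3 had none. Peripheral myelin alternatives other than the 3 reported left areas under 20 spots. The S100a11 levels in central myelin rest on 59, 54, 43 and 53 UMIs in TN1, TN2, TN3 and HC.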
